A study of Rattus norvegicus with 14 samples.

Results

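The FGF receptors Fgfr1, Fgfr2, Fgfr3 and Fgfr4 were followed across 7 rat cell lines, 4 of the 12177 genes whose signal could be tested, with all array probes that the scanner files assign to them by gene name. These are 8 of the 41012 probes that are not controls: 2 for Fgfr1, 4 for Fgfr2, 1 for Fgfr3 and 1 for Fgfr4. FGF receptors are tyrosine kinases of the cell surface that bind fibroblast growth factors together with heparan sulfate or a Klotho protein and signal through adaptors to ERK and other kinases. Alternative splicing of the third immunoglobulin domain of Fgfr1, Fgfr2 and Fgfr3 gives a IIIb form, typical of epithelium, and a IIIc form, typical of mesenchyme, which bind different ligands. In the mouse blastocyst, FGF signalling through Fgfr1 and Fgfr2 directs inner cells toward the hypoblast, the layer also called primitive endoderm.

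The blastocyst lines were Fi1 (Fischer, male), Fi2 (Fischer, female) and Wk8 (Wistar-Kyoto, female). The bone marrow lines were CL19 (Fischer, female), 3C3 (Fischer, male) and RMAPC-1 (Fischer, male). All 6 are described by the submitters as hypoblast stem cells and are called stem cell lines here, and RClone-2 (Fischer, male) is the single mesenchymal control line. No treatment or genetic change is given for any of them. Total RNA of each line was hybridised to 2 one-colour Agilent arrays, A and B, and the labels do not say whether these came from separate cultures, so the line was the replicate.

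Every level below is the log2 processed signal of a probe minus the 75th percentile of its own array, so that 0 means as bright as that percentile. A probe is called above background where the scanner software marked it as well above background on that array. Levels of different probes are not set against each other, because probes differ in how well they bind. The receptors were chosen with earlier results in view, namely the differences between the Fgfr2 probes in blastocyst minus bone marrow lines. Receptor values in that comparison are therefore given as a description with no test, and only stem cell lines against the mesenchymal line was tested. In RNA of whole cultures, fewer cells that express a gene and less of its RNA per cell cannot be told apart.

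Between 61.8% and 68.0% of probes were above background on each array. Hypoblast markers were above background in both stem cell groups, 14 of 14 in each, and 12 of 14 in RClone-2. The summed hypoblast marker level, in multiples of the array's 75th percentile, was 833.7 to 1003 in blastocyst lines, 762.2 to 884.3 in bone marrow lines and 75.1 in RClone-2. Stroma markers showed the reverse, with sums of 17.3 to 38.3 in blastocyst lines, 15.2 to 44.0 in bone marrow lines and 1110 in RClone-2. Of 15 stroma markers, 6 were above background on some array of the blastocyst lines, 7 of the bone marrow lines and 13 of RClone-2. Prrx1, Postn and Thy1 were among those not above background in any stem cell line. Lum and Nt5e were not above background in RClone-2, and Nt5e was above it in blastocyst lines. Epithelial markers summed to 167.2 to 240.3 in blastocyst lines, 274.6 to 412.4 in bone marrow lines and 0.232 in RClone-2, where Cdh1 and Epcam were not above background. Endothelial markers summed to 1.84 to 3.39 in blastocyst lines, 0.586 to 0.908 in bone marrow lines and 0.0839 in RClone-2. Haematopoietic markers summed to at most 1.23 in stem cell lines and to 13.8 in RClone-2. Of 10 with a probe, 8 were above background on some array of the blastocyst lines, 6 of the bone marrow lines and 6 of RClone-2. Cd34, Itgam, Itgb2 and Spi1 were not above background in RClone-2. Trophoblast markers summed to 0.533 to 0.650 in blastocyst lines, 1.04 to 2.24 in bone marrow lines and 1.58 in RClone-2, and epiblast markers to 1.21 to 2.15 in blastocyst lines, 6.40 to 8.93 in bone marrow lines and 0.793 in RClone-2. By the hypoblast and stroma sums the labels fitted the lines, though single markers such as Nt5e did not follow the sums. The part of any other cell type in the results was not tested.

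The probes are shown first because they read different stretches of the receptors. All lie on the minus strand of rat genome build rn4. The Fgfr1 kinase probe (NM_024146, chr16:70870147-70870312, across an intron) and the Fgfr4 probe (NM_001109904, chr17:15512990-15513049, within an exon) both read the end of the kinase domain. They are the most alike of all pairs of receptor probes, with 29 of 40 overlapping bases identical, which are in capitals here.
Fgfr1 kinase probe: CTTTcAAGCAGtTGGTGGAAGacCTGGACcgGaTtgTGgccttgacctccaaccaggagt
Fgfr4 probe: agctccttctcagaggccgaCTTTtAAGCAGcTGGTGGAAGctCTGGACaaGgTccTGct
Their differences from the mesenchymal line had opposite signs, and that of the Fgfr1 probe did not pass, as the values further on show. Whether either probe also reads the other receptor was not tested.

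The Fgfr2 probes are shown because they disagreed in the size of the difference between blastocyst and bone marrow lines. At the scaling used, each had its lower mean in blastocyst lines. The Fgfr2 kinase probe (NM_012712, chr1:189499698-189501683, across an intron) starts at base 2320 of that transcript, inside the kinase domain. The Fgfr2 3' probe (NM_012712, chr1:189483073-189483132) starts at base 4471, in the 3' untranslated region, and is not printed. The files list transcript variants a, b and 2 more for both of these probes. The Fgfr2 variant a probe (NM_012712 and 2 other transcripts, base 1709) opens with the end of the exon that makes the IIIb form and runs into the next exon. The files place it at chr1:189482950-189482987, an interval of only 38 bases that lies beyond the 3' probe and not where its transcript position would put it. The Fgfr2 variant b probe is assigned by the files to transcript variant b and is not printed. No RefSeq transcript is listed for both the variant a and the variant b probe.
Fgfr2 kinase probe: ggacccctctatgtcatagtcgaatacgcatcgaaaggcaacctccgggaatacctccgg
Fgfr2 variant a probe: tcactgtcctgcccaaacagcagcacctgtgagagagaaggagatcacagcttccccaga

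The other probes read single sites. The Fgfr3 probe (NM_053429, chr14:82684088-82684322, across an intron) codes the tail of the receptor after the kinase domain. The second Fgfr1 probe was designed on a partial coding sequence (U95164, chr16:70880267-70880326) and is called the Fgfr1 partial-cds probe. A further 2 probes carry a receptor name only in their description and are no members of the set. Of these, the Fgfr3 Ensembl probe (chr14:82688053-82688112) is described here and the other is not reported. It is shown because it reads the IIIb exon of Fgfr3, as known from the mouse and human receptors.
Fgfr3 probe: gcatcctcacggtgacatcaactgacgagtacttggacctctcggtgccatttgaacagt
Fgfr3 Ensembl probe: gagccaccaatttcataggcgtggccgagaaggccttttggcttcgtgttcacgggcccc

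Fgfr3 and Fgfr4 set the stem cell lines apart from the mesenchymal line, both Fgfr1 probes of the set were above background in all lines, and Fgfr2 depended on the line and on the probe. Of the 8 receptor probes, 7 were tested because A and B of some line both showed them above background. A probe that is dim in one group passes this filter only through the other. Among those 7, 2 were higher and 1 was lower in stem cell lines than in RClone-2 (limma, Benjamini-Hochberg adjusted p at most 0.05 over 29330 probes). Of all probes tested, 47.7% passed in this comparison, 25.3% higher and 22.5% lower, so a call by itself does not set a receptor apart from other genes. The mesenchymal group is 1 line, and the fit takes its spread to be that of the other lines.

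Fgfr3, a receptor that restrains bone growth, had 1.52 and 1.14 in Fi1, 1.16 and 0.89 in Fi2, and 0.75 and 0.77 in Wk8, arrays A and B in turn. The bone marrow lines had 0.76 and 0.64 in CL19, 0.26 and 0.53 in 3C3, and 0.37 and 0.02 in RMAPC-1. In RClone-2 the arrays read -5.45 and -5.38, still above background on both. All 12 stem cell arrays lay far above both mesenchymal arrays. From highest to lowest the line means ran Fi1, Fi2, Wk8, CL19, 3C3, RMAPC-1 and RClone-2, and the arrays overlapped between Fi1 and Fi2, between Wk8 and CL19, and between 3C3 and RMAPC-1. The difference of stem cell lines minus RClone-2 was 6.15 ± 0.27 on the log2 scale (SE, 6 lines against 1), 70.9-fold, with a limma adjusted p of 1.83e-05. The smallest difference of any stem cell line from RClone-2 was 5.61. With normexp, another background correction that lifts dim signals by an offset of 50, the difference of the groups was 4.02.

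The Fgfr3 Ensembl probe, in the IIIb exon, followed the same pattern. It read -2.70 to -1.52 on the 12 stem cell arrays, above background on every one, and -7.97 and -8.46 in RClone-2, where it was not above background. Its limma difference was 5.96 ± 0.28 (SE, 6 lines against 1; adjusted p = 2.31e-05). Because the mesenchymal value is only a bound, the stem cell level was at least 16.8-fold higher. Such a bound sets the mean of the bright group against the lowest signal called above background on the dim arrays, or the dim probe itself where that is higher.

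Fgfr4, which in liver works with Klb as the receptor of the hormone Fgf15, had -0.38 and -0.18 in Fi1, -0.04 and 0.49 in Fi2, and -0.59 and -0.67 in Wk8. The bone marrow lines had 0.82 and 1.01 in CL19, 0.42 and 0.07 in 3C3, and -0.53 and 0.29 in RMAPC-1. RClone-2 read -5.72 and -6.33, not above background on either array. No stem cell array came near the mesenchymal ones. The line means ran CL19, 3C3, Fi2, RMAPC-1, Fi1, Wk8 and RClone-2 from highest to lowest, and the arrays of 3C3, Fi2, RMAPC-1 and Fi1 overlapped along that order. Stem cell lines were at least 67.6-fold higher than RClone-2, with a log2 difference of 6.08 ± 0.44 (SE, 6 lines against 1; limma adjusted p = 1.42e-04). With normexp the difference was 3.16 and still passed.

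Fgfr1, the receptor most often linked to mesenchyme, gave a bright signal in every line. Its kinase probe had -0.61 and 0.08 in Fi1, 0.34 and 0.78 in Fi2, and -1.15 and -0.95 in Wk8. The bone marrow lines had 0.75 and 0.80 in CL19, 0.72 and 0.92 in 3C3, and 1.54 and -0.32 in RMAPC-1. RClone-2 read 1.25 and 1.42. Wk8 was lowest, and RClone-2 had the highest line mean, although array A of RMAPC-1 lay above both of its arrays. Between them the line means ran 3C3, CL19, RMAPC-1, Fi2 and Fi1, and the arrays overlapped between neighbours from 3C3 to Fi2. Stem cell lines minus RClone-2 came to -1.09 ± 0.52 (SE, 6 lines against 1), which did not pass (limma adjusted p = 0.133). Without Fi2 the difference was -1.30 with an adjusted p of 0.0260, so that this call hung on 1 line.

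The Fgfr1 partial-cds probe was dim throughout but above background on all 14 arrays. It averaged -5.41 ± 0.06 in blastocyst lines and -4.22 ± 0.07 in bone marrow lines (SD, n = 3 each), and -4.22 in RClone-2. Its limma difference of stem cell lines minus RClone-2 was -0.60 ± 0.14 (SE, 6 lines against 1; adjusted p = 0.0149), yet the bone marrow lines and RClone-2 overlapped. The call was lost in 7 of 18 other settings, with an adjusted p of up to 0.947 with normexp.

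**Figure D1:**
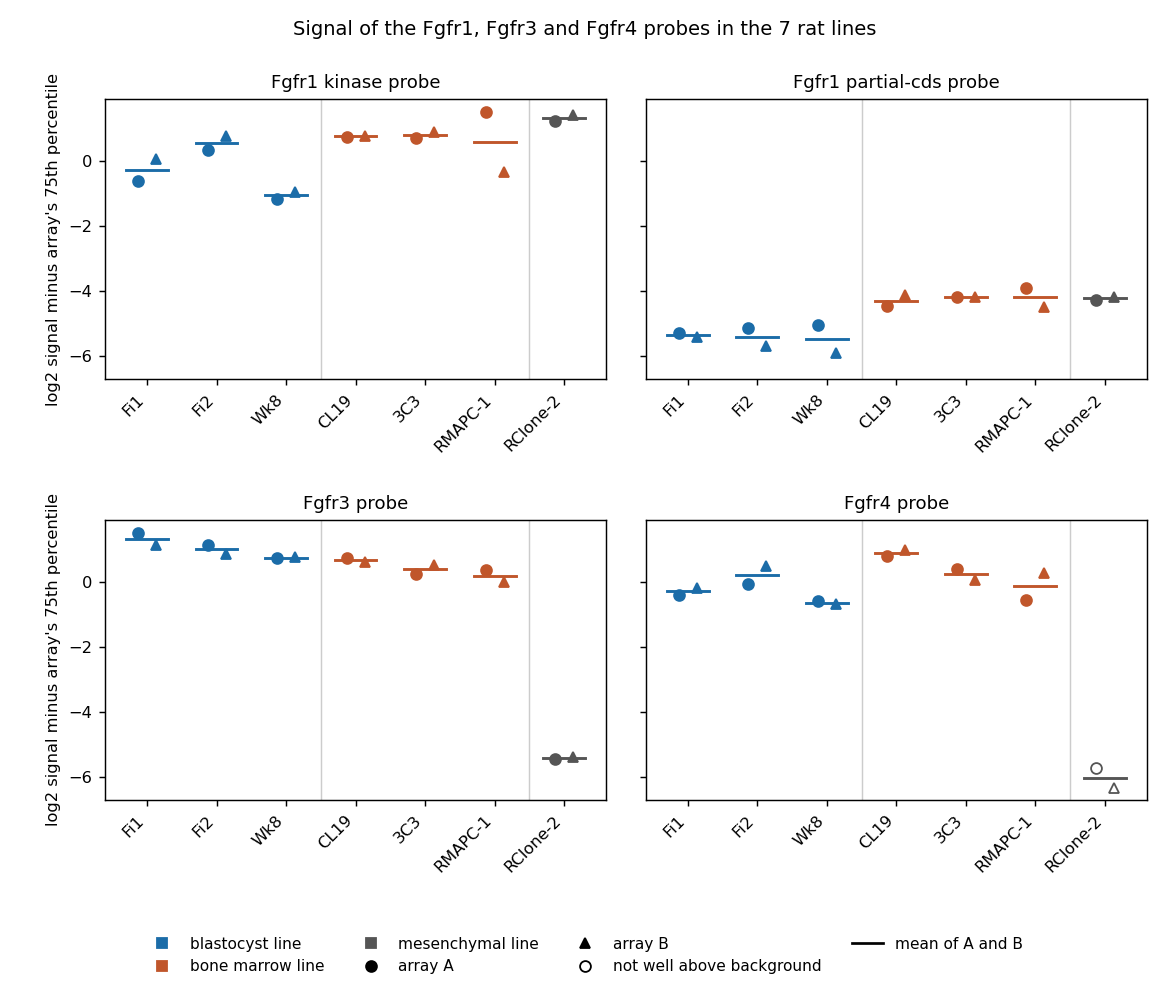
Log2 signal minus the array's 75th percentile (y axis) for the Fgfr1, Fgfr3 and Fgfr4 probes in the 7 lines (x axis). Circles are arrays A, triangles are arrays B, open symbols were not well above background, and bars are line means. Fgfr3 and Fgfr4 drop by about 6 units in RClone-2, while the Fgfr1 kinase probe has its highest line mean there.

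Fgfr2, the receptor of Fgf7 and Fgf10 in its IIIb form, was bright in bone marrow lines by its 3' probe. That probe had -4.17 and -2.32 in Fi1, -0.97 and -1.55 in Fi2, and -5.98 and -6.59 in Wk8, where it was not above background on either array. The bone marrow lines had 1.62 and 1.64 in CL19, 2.56 and 1.52 in 3C3, and 3.85 and 1.35 in RMAPC-1. RClone-2 read -3.70 and -3.32, within the range of the blastocyst lines. Every bone marrow array lay above every other array. From highest to lowest the line means ran RMAPC-1, 3C3, CL19, Fi2, Fi1, RClone-2 and Wk8. Fi1 and RClone-2 differed by less than the gap between the arrays of Fi1, and the arrays of the bone marrow lines overlapped one another.

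The 3' probe thus averaged -3.60 ± 2.53 in blastocyst lines and 2.09 ± 0.49 in bone marrow lines (SD, n = 3 each). Blastocyst minus bone marrow lines was -5.69, partly from Wk8 signals not above background. This difference is a description since the receptor was chosen from this contrast. It was -4.34 without Wk8, the line not above background, and -6.86 without Fi2. Blastocyst lines minus RClone-2 was -0.09 and bone marrow lines minus RClone-2 was 5.60. Both of these share RClone-2 and neither was tested. The blastocyst lines themselves spread over 5.03 on the log2 scale, against 0.97 among the bone marrow lines. Stem cell lines as a whole minus RClone-2 gave 2.76 ± 1.61 (SE, 6 lines against 1), which did not pass (limma adjusted p = 0.206). Without Wk8 this was 3.43 with an adjusted p of 0.0164, so 1 line decided the call.

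The Fgfr2 kinase probe ran the same way on a smaller scale. It had -6.54 and -6.21 in Fi1, -5.87 and -5.39 in Fi2, and -6.90 and -6.75 in Wk8, with 3 of these 6 arrays above background. CL19 had -3.12 and -4.15, 3C3 had -3.68 and -4.17, and RMAPC-1 had -1.96 and -4.27. RClone-2 read -5.20 and -6.18. Bone marrow arrays were again above all others. Blastocyst minus bone marrow lines was -2.72, partly from signals not above background, and was -0.76 with normexp. Bone marrow lines minus RClone-2 was 2.13, and the tested difference of all stem cell lines minus RClone-2 was 0.77 ± 0.47 (SE, 6 lines against 1; limma adjusted p = 0.223). Across the 7 lines the kinase and 3' probes correlated at r = 0.961, a description over lines that share arrays. The 3' probe correlated with the variant b probe at r = 0.960, although that probe was mostly not above background, and with the variant a probe at r = 0.589.

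On the variant probes the split was small or near background. The variant a probe was above background on all 14 arrays and nearly level, from -4.98 to -4.80 in blastocyst lines, from -4.66 to -4.49 in bone marrow lines, and -4.62 in RClone-2. Its difference of blastocyst minus bone marrow lines was -0.33, without overlap of the 3 line means on each side, and stem cell lines minus RClone-2 was -0.12 ± 0.15 (SE, 6 lines against 1; limma adjusted p = 0.553). Without scaling between arrays both turned positive, 0.15 and 0.09. The variant b probe was above background on 1 of 14 arrays, array A of RMAPC-1 at -4.54, while array B of that line read -7.79. It averaged -7.36 in blastocyst lines, -6.32 in bone marrow lines and -6.95 in RClone-2, mostly signals not above background, and was not tested. The size of a difference could not be measured at this signal, although the blastocyst line means lay below the bone marrow ones here too.

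**Figure D2:**
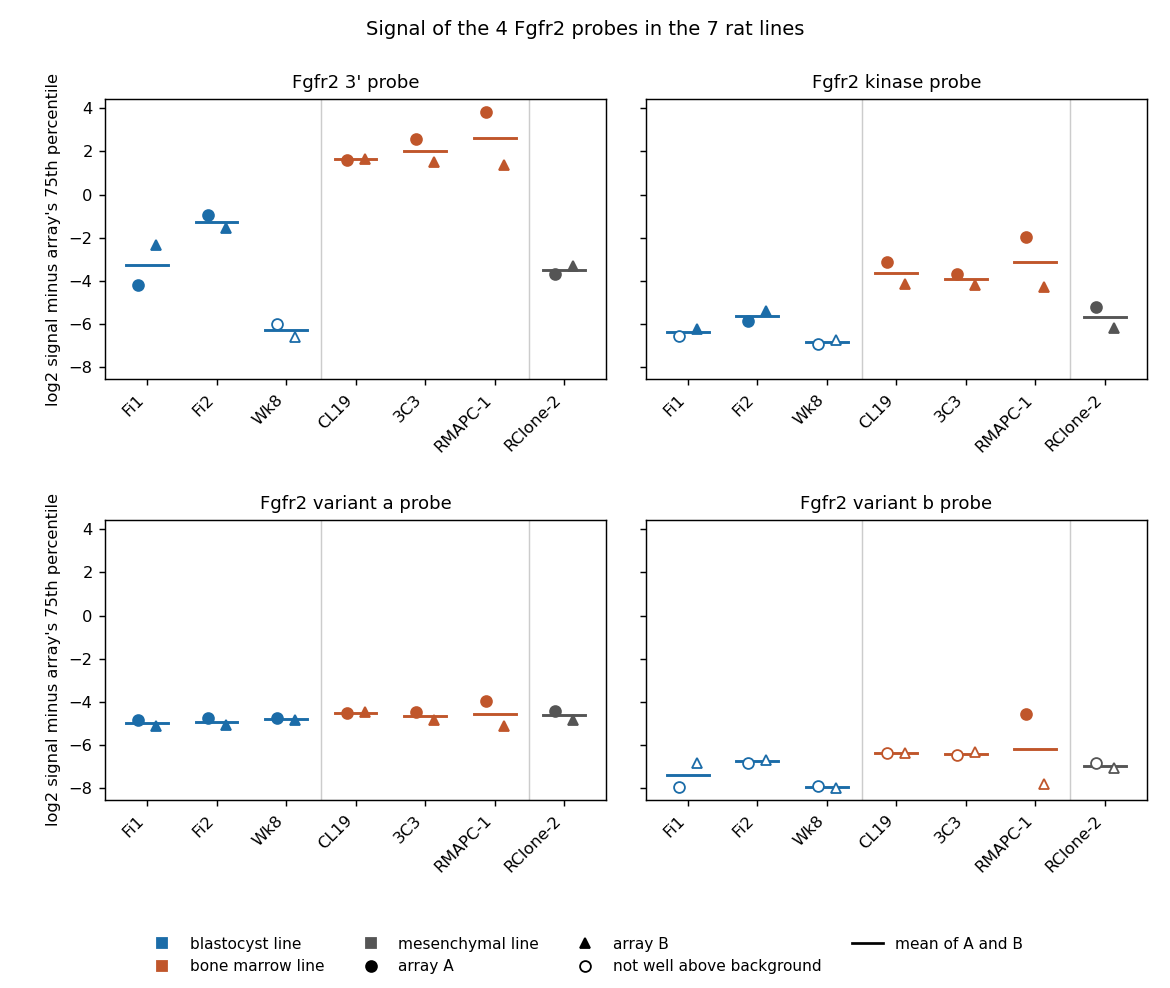
Log2 signal minus the array's 75th percentile (y axis) for the 4 Fgfr2 probes in the 7 lines (x axis). Circles are arrays A, triangles are arrays B, open symbols were not well above background, and bars are line means. The 3' and kinase probes separate bone marrow from blastocyst lines, with differences of -5.69 and -2.72 in blastocyst minus bone marrow lines, the variant a probe differs by -0.33, and the variant b probe is closed only for array A of RMAPC-1.

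The spread between the Fgfr2 probes was set beside that of other genes. The 3 tested Fgfr2 probes ranged over 5.36 in blastocyst minus bone marrow lines, the widest of 3032 genes with at least 2 tested probes, whose median range was 0.30. Since Fgfr2 was chosen for this disagreement, its rank is a description. The variant a probe, at the small end of this range, was dim on all arrays, and genes were not matched for probe brightness. With normexp the 3', kinase and variant a probes differed by -4.28, -0.76 and -0.09. How far dim signal sets the rank was not tested. In stem cell lines minus RClone-2 the range was 2.87, rank 138 of 3032, and rank 29 of the 451 genes with 3 tested probes. That comparison holds the same bone marrow and blastocyst values, so these ranks are a description too. The 2 Fgfr1 probes lay 0.20 apart in blastocyst minus bone marrow lines and 0.49 apart in stem cell lines minus RClone-2.

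Array A of RMAPC-1 bore on all Fgfr2 values. The 3', kinase, variant a and variant b probes were 2.49, 2.31, 1.13 and 3.25 higher on array A of that line than on array B. The Fgfr1 kinase probe was 1.86 higher, whereas the Fgfr3 probe was 0.35 higher and the Fgfr4 probe 0.82 lower. Over all tested probes, 16.6% differed by more than 2-fold between the arrays of RMAPC-1, against 3.07% to 6.33% in the other lines. On the 3' and kinase probes, every array of CL19 and 3C3 also exceeded every blastocyst array, whereas on the variant a probe array B of 3C3 did not.

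Among blastocyst and bone marrow lines the line means of 6 of the 7 tested receptor probes did not overlap, 5 lower and 1 higher in blastocyst lines. For all probes this share was 52.0%, with 36.5% lower, and 32.4% of all probes passed the limma test in this comparison, 9.12% higher and 23.2% lower. The limma test was not used for the receptors here, since they had been chosen in this contrast, and nothing is read from the count. Fgfr3 averaged 1.04 ± 0.29 in blastocyst lines and 0.43 ± 0.26 in bone marrow lines, and Fgfr4 averaged -0.23 ± 0.43 in blastocyst lines and 0.34 ± 0.52 in bone marrow lines (SD, n = 3 each). The Fgfr1 kinase probe averaged -0.25 ± 0.80 in blastocyst lines and 0.74 ± 0.11 in bone marrow lines (SD, n = 3 each). Fgfr4 lines overlapped. The gap for Fgfr3 was narrow, 0.06 between Wk8 and CL19. The Fgfr1 kinase gap was narrow too, 0.05 between Fi2 and RMAPC-1.

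The slides gave a partial check, as CL19 shared its slides with all blastocyst lines and the other 2 bone marrow lines shared theirs with RClone-2. Blastocyst lines minus CL19 within slides was -5.23 for the Fgfr2 3' probe, -2.64 for the Fgfr2 kinase probe, -1.02 for the Fgfr1 kinase probe, 0.34 for Fgfr3 and -1.14 for Fgfr4. The mean of 3C3 and RMAPC-1 minus RClone-2 within slides was 5.83 for the Fgfr2 3' probe, 5.71 for Fgfr3 and 6.08 for Fgfr4. These kept the direction of the values over all slides. For the Fgfr1 partial-cds and the Fgfr2 variant a probe, 3C3 and RMAPC-1 minus RClone-2 was 0.03 and 0.01. All bone marrow lines minus RClone-2 was likewise near 0, at -0.01 and 0.05. The stem cell differences of -0.60 and -0.12 also hold the blastocyst lines, which share no slide with RClone-2. Blastocyst lines minus CL19 was -0.14 for the Fgfr3 Ensembl probe, against 0.24 for blastocyst minus all bone marrow lines. That second value also holds 3C3 and RMAPC-1, so a change of lines and a change of slides cannot be told apart.

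**Figure D3:**
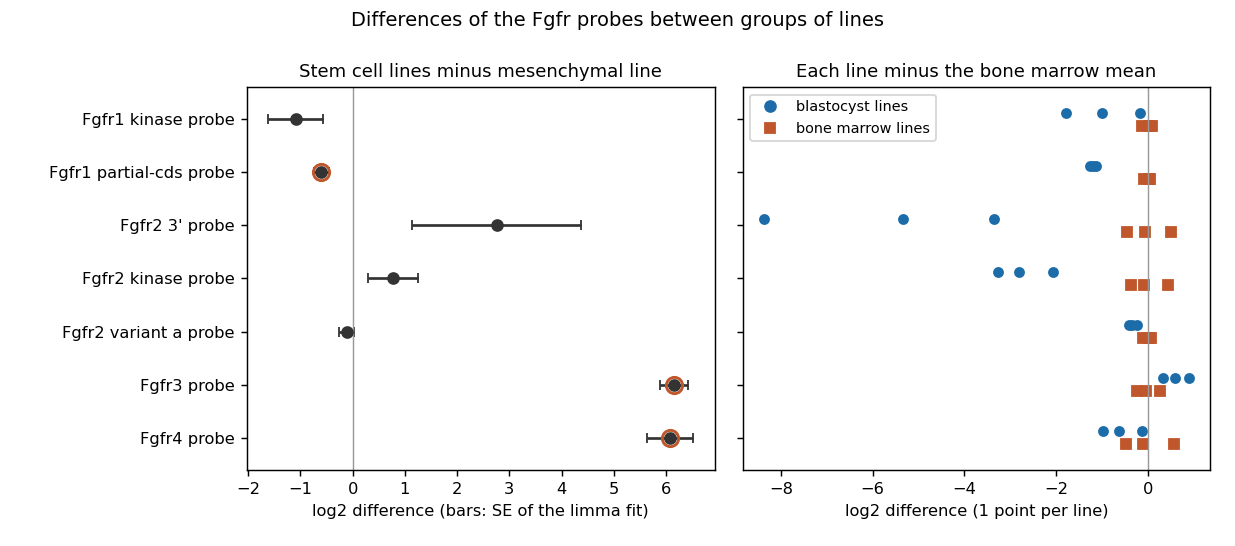
Log2 differences (x axis) of the 7 tested receptor probes (y axis). The left plot shows stem cell lines minus RClone-2 with the SE of the limma fit, and rings mark an adjusted p of at most 0.05, for Fgfr3, Fgfr4 and the Fgfr1 partial-cds probe. The right plot shows each stem cell line minus the bone marrow mean, where the blastocyst lines reach furthest down for the Fgfr2 3' probe.

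Other genes whose 7 line means followed each receptor's brightest probe were ranked by Pearson correlation, as a description over lines that share arrays. For the Fgfr1 kinase probe these were Suclg2, a subunit of a mitochondrial succinyl-CoA synthetase (r = 0.996), Enoph1 by 2 probes, Dbi and Mmachc. For the Fgfr2 3' probe they were Nfyb, a subunit of the CCAAT-binding factor NF-Y (r = 0.994), Hdgf, Glul, Tmed5 and St13. Fgfr3 was followed most closely by Nherf2, a scaffold protein (r = 0.999), Orc2, Stard8, Slc40a1 and Kdm5b, and Fgfr4 by Trim28, a transcriptional corepressor (r = 0.998), Supv3l1, Ptpn13, Tcf7l1 and Spint1. At r of 0.95 or above there were 34 probes for Fgfr1 and 192 for Fgfr2. Fgfr3 and Fgfr4 had 1081 and 1033, as the single step between RClone-2 and the stem cell lines sets their pattern. Within the 6 stem cell lines, the Fgfr1 kinase and Fgfr2 3' probes correlated at r = 0.944 and Fgfr3 with the Fgfr2 3' probe at -0.63. Over all 7 lines these were 0.607 and 0.208. The values within stem cell lines include the split between blastocyst and bone marrow lines from which the receptors were chosen.

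The genes around the receptors were read from 7 lists, each gene by its brightest probe. Over all 12177 genes, 51.1% passed in stem cell lines against RClone-2, 27.6% higher and 23.4% lower, with a median difference of 0.09. In blastocyst against bone marrow lines 29.3% passed, 10.3% higher and 19.1% lower, with a median of -0.14. Genes of these lists other than the receptors carry limma adjusted p-values in both comparisons.

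Co-receptors and binding partners moved both ways against the mesenchymal line. Of 19 listed, 15 were tested: 5 were higher, 5 lower and 5 did not pass in stem cell lines, with a median difference of -0.35. Klb, the co-receptor with which Fgfr4 binds Fgf15, had line means of 0.79 to 0.97 in stem cell lines and -7.56 in RClone-2, where it was not above background, and was at least 146-fold higher (limma adjusted p = 1.05e-06). Flrt3, a membrane protein that binds FGF receptors, differed by 8.35 ± 0.21 (SE; limma adjusted p = 2.38e-06). The heparan sulfate proteoglycan Sdc2, above background on 3 of 12 stem cell arrays, was lower by a difference of -8.78 ± 1.30 (SE; limma adjusted p = 0.00267), while the glypican Gpc3 was at least 123-fold higher (limma adjusted p = 0.00519). In blastocyst against bone marrow lines 1 of the 15 was higher and 1 lower. Cdh2, N-cadherin, which binds Fgfr1, was 15.7-fold higher in blastocyst lines (3.97 ± 0.53, SE, 3 lines against 3; limma adjusted p = 0.00790). Flrt3 was 1.47-fold lower (limma adjusted p = 0.0416). That call was lost with normexp, in all 3 other scalings, with slide as a block and without arrays A or B. It was also lost without Fi1, Wk8, 3C3 or RMAPC-1, and without array A of RMAPC-1 alone.

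Heparan sulfate is the sugar chain that FGFs need to bind their receptors. Of 19 genes for its synthesis and editing, 15 were tested, with 3 higher, 8 lower and 4 not passing in stem cell lines against RClone-2, and a median of -0.68. The sulfotransferase Hs3st1 was 106-fold higher (6.73 ± 0.31, SE; limma adjusted p = 2.13e-05), and the heparanase Hpse was higher by 4.41 ± 1.25 (SE; limma adjusted p = 0.0297). Sulf2 and Sulf1, which remove sulfate groups from the chain, were above background on 4 and 2 of 12 stem cell arrays, and their signals were lower by differences of -6.42 ± 0.67 and -4.99 ± 1.02 (SE; limma adjusted p = 6.37e-04 and 0.00930). The Hpse call was lost without CL19, without RMAPC-1, without arrays B and with normexp, which also ended the Sulf1 call. Between blastocyst and bone marrow lines Ext2, a polymerase of the chain, was 1.72-fold higher (limma adjusted p = 0.0122), a call lost with normexp and with slide as a block, and the other 14 did not pass.

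Adaptors and kinases of the cascade were tested for 24 of 27 listed genes. Against RClone-2, 7 were higher, 5 lower and 12 did not pass, with a median of 0.18. Frs2, the docking protein that couples the receptors to ERK, averaged -2.94 in stem cell lines and -2.91 in RClone-2 (difference -0.03 ± 0.18, SE; limma adjusted p = 0.909; named outside the ranking for its role). The adaptor Gab1 was 32.9-fold higher (limma adjusted p = 6.63e-05), the scaffold Ksr1 20.1-fold (limma adjusted p = 5.08e-05) and the kinase Braf 4.35-fold (limma adjusted p = 5.16e-04). Grb14, an adaptor that inhibits receptor kinases, was 68.7-fold lower (limma adjusted p = 0.00258). Between blastocyst and bone marrow lines 3 were higher, 4 lower and 17 did not pass. Plcg1, the phospholipase that binds activated FGF receptors, was 2.08-fold higher in blastocyst lines (1.06 ± 0.14, SE, 3 lines against 3; limma adjusted p = 0.00778). Ksr1 was 1.91-fold higher, a call lost without RMAPC-1, without arrays A or B and with slide as a block (limma adjusted p = 0.0173).

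Ligands were mostly dim, and only 8 of 21 were tested. Against RClone-2, 3 were higher, 3 lower and 2 did not pass, with a median of 0.50. Fgf10, a ligand of the IIIb form of Fgfr2, had line means of -1.19 to -0.47 in stem cell lines and -5.31 in RClone-2, 23.8-fold higher in stem cell lines (limma adjusted p = 1.86e-04). Fgf7, the other main ligand of that form, was not above background on any stem cell array and read 0.88 in RClone-2, at least 139-fold lower in stem cell lines (limma adjusted p = 1.05e-06). Fgf8, a ligand of IIIc forms and of Fgfr4, was at least 11.1-fold higher in stem cell lines (limma adjusted p = 5.86e-04). Fgf2 was above background on 3 of 12 stem cell arrays and lower than in RClone-2 by a difference of -2.16 ± 0.20 (SE; limma adjusted p = 3.58e-04), a call lost with normexp. Fgf8 was 4.02-fold higher in blastocyst than in bone marrow lines (limma adjusted p = 0.0181), a call lost with slide as a block, without arrays B and with normexp. Fgf13, which acts inside cells and does not bind the receptors, was at least 1.58-fold lower in blastocyst lines, as it was not above background on their arrays (limma adjusted p = 0.00635), a call lost with normexp and without arrays A. Fgf7 passed in the same comparison as well, but was below background in both groups, so no fold is given.

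Feedback inhibitors and target genes of ERK were tested for 20 of 21 listed genes, with 4 higher, 11 lower and 5 not passing in stem cell lines against RClone-2, and a median of -1.69. Spry1, an inhibitor of receptor kinase signalling, was not above background in RClone-2 and at least 75.1-fold higher in stem cell lines (limma adjusted p = 7.94e-04). Dusp6, the phosphatase that turns ERK off, was 28.2-fold lower in stem cell lines, at -0.22 ± 0.67 (SD, n = 6) against 4.60 in RClone-2 (limma adjusted p = 0.00119). The transcription factors Fosl1 and Etv1 were lower by differences of -8.61 ± 0.67 and -5.96 ± 0.28 (SE; limma adjusted p = 1.98e-04 and 2.51e-05), and Etv1 was above background on 1 of 12 stem cell arrays. Where most arrays of a group are not above background, as here, a difference takes its size partly from signal at that level. Between blastocyst and bone marrow lines, Etv4 was 2.98-fold lower (limma adjusted p = 0.0398), and the other 19 did not pass. The Etv4 call was lost with normexp, in all other scalings and when any 1 line other than Fi2 was left out. Leaving out arrays A, or array A of RMAPC-1 alone, also lost it.

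Splicing regulators that have been tied to the choice of the Fgfr2 exons were tested for 18 of 22 listed genes. Against RClone-2, 6 were higher, 2 lower and 10 did not pass, with a median of 0.37. Esrp1, the epithelial factor that favours the IIIb exon, had line means of -0.05 to 0.46 in the 6 stem cell lines and -8.13 in RClone-2, where it was not above background. It was at least 89.3-fold higher in stem cell lines (limma adjusted p = 1.32e-06). Esrp2, its close relative, was higher by 0.89 ± 0.15 (SE; limma adjusted p = 0.00406), a call lost with normexp, and is named outside the ranking. Mbnl2 and Qki, which regulate many alternative exons, were lower by differences of -4.51 ± 0.34 and -2.40 ± 0.23 (SE; limma adjusted p = 1.62e-04 and 4.90e-04), and Rbm25 was 2.34-fold higher (limma adjusted p = 0.00333).

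Between blastocyst and bone marrow lines Esrp1 and Esrp2 did not pass. A link between any listed regulator and the values of the Fgfr2 probes was not tested. Esrp1 averaged 0.02 in blastocyst lines and 0.28 in bone marrow lines (difference -0.26 ± 0.13, SE; limma adjusted p = 0.158), and Esrp2 averaged -1.75 in blastocyst lines and -1.41 in bone marrow lines (limma adjusted p = 0.0632). Of the 18 regulators 1 was higher, 7 lower and 10 did not pass, with a median of -0.30. Mbnl2 was 7.34-fold higher in blastocyst lines (2.88 ± 0.25, SE, 3 lines against 3; limma adjusted p = 0.00413), at 1.24 to 1.87 in these and -1.79 to -1.05 in bone marrow lines. Its 2 other tested probes differed by 2.91 and 2.88. Hnrnpm, Hnrnpf and Hnrnph2, abundant splicing proteins, were 1.54-fold, 1.48-fold and 1.62-fold lower (limma adjusted p = 0.0216, 0.0176 and 0.0268), calls that all 3 lost without scaling, with slide as a block, without Fi1, without 3C3 and without RMAPC-1.

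Other receptor tyrosine kinases changed more often upward, 16 higher, 9 lower and 9 not passing of 34 tested among 47 listed, with a median of 1.55 in stem cell lines minus RClone-2. Pdgfrb, a receptor of mesenchymal cells, was above background on 1 of 12 stem cell arrays, and its signal was lower by a difference of -11.84 ± 0.44 (SE; limma adjusted p = 9.38e-06), and the collagen receptor Ddr2 was at least 134-fold lower (limma adjusted p = 9.25e-06). Mertk, a receptor for the uptake of dying cells, and the ephrin receptor Epha1 were at least 121-fold and at least 82.3-fold higher (limma adjusted p = 4.34e-06 and 2.92e-05). In blastocyst minus bone marrow lines 8 were higher, 2 lower and 24 did not pass, with a median of 0.43. The VEGF receptor Flt1 was 5.52-fold higher in blastocyst lines, and a second kept probe differed by 1.26 (limma adjusted p = 0.00356 for the brightest). Of the 8 endothelial markers tested, 6 were higher in blastocyst lines and none lower, among them the receptors Tek, Tie1 and Kdr, and the part of this shift in the list was not tested. Ephb2 and Ephb3, receptors for ephrin-B ligands, were 7.12-fold and 2.99-fold higher, and Ltk was 3.22-fold lower (limma adjusted p = 0.0116, 0.0140 and 0.00854). All 3 of these calls were lost without arrays A, Ltk also without array A of RMAPC-1, and Ephb2 also with normexp and with slide as a block.

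**Figure D4:**
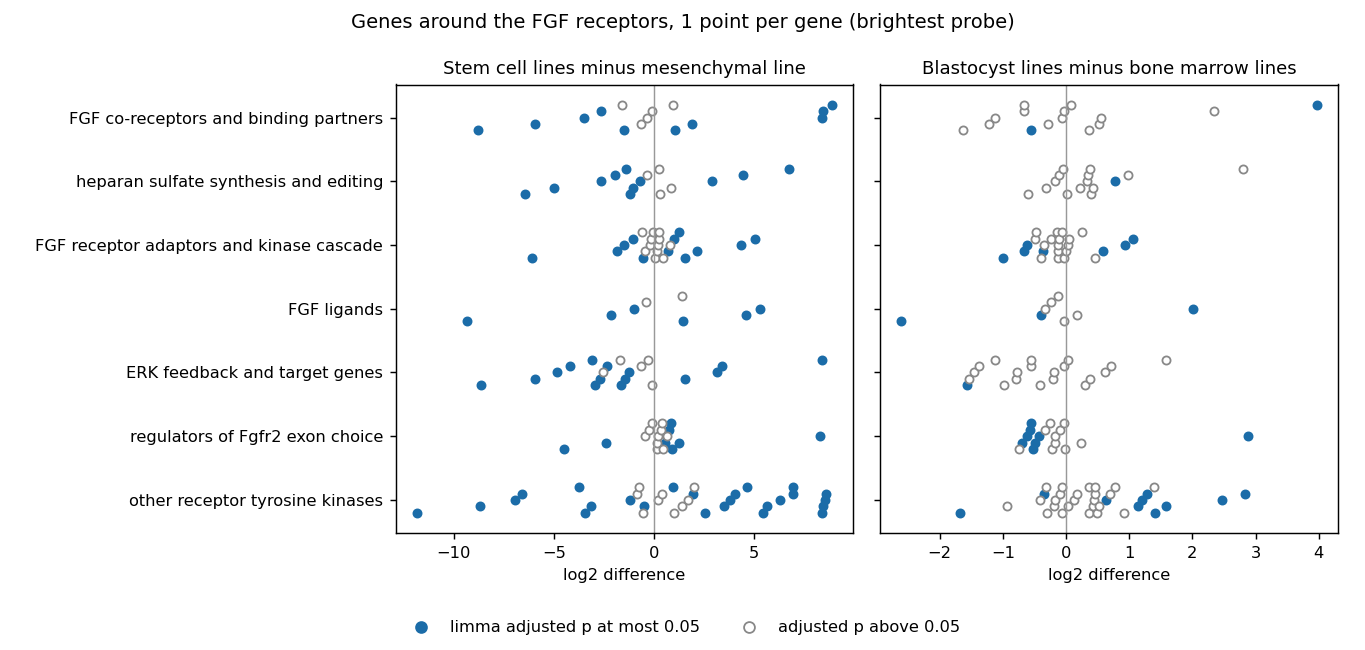
Log2 difference (x axis) of every tested gene of the 7 lists (y axis), by its brightest probe, in stem cell lines minus RClone-2 (left) and blastocyst minus bone marrow lines (right). Filled points have a limma adjusted p of at most 0.05, and the small vertical offset only separates points. ERK feedback and target genes lie mostly left of 0 in the left plot, 11 lower and 4 higher, and the right plot spans a narrower range.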

How the data were processed

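RNA of 7 rat lines, labelled with Cy3, was measured on 14 one-colour Agilent arrays (4 slides per the file headers). Spots were extracted by the authors with Agilent Feature Extraction, version 10.7.3.1 per the submitters' processing notes. The deposited scanner tables hold each spot's processed signal, mean signal and local background as an intensity. Their background and outlier flags, deposited as 0 or 1, are other values. A deposited table of the whole series gives log2 values, which equal the log2 processed signal when both are sorted, with no scaling between arrays.

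From the log2 of each processed signal the array's own 75th percentile, taken over 43379 non-control spots, was subtracted. Spots flagged as outliers, 65 to 193 per array, were left out. A probe was kept where A and B of some line both showed it well above background, which left 29330 of 41012. Arrays A and B were averaged, and the 7 line means (3 blastocyst, 3 bone marrow, 1 mesenchymal) entered limma (3.58.1, with R 4.3.3; lmFit and eBayes with 4 residual degrees of freedom), Benjamini-Hochberg over all kept probes, threshold 0.05. The p-values measure the spread between lines, and the number of lines limits the precision. Gene names were updated through RefSeq's table of assembly GRCr8 by accession (17236 probes) or symbol (2851), while 20925 names stayed as deposited. Coordinates come from the files, on build rn4.

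Members, lists and tests were chosen with earlier results of these data known. Named genes were all receptor probes, the 5 probes of other genes most correlated with each receptor's brightest probe, and up to 4 genes per list with the largest differences among those that passed. Exceptions are said in the text, and a few items named by this rule are not reported here. On simulated data of 29330 probes, the fit recovered 7.46%, 70.1% and 97.0% of probes changed by 1, 2 and 4 on the log2 scale in stem cell lines against the mesenchymal line, and 26.9%, 89.6% and 93.9% in blastocyst against bone marrow lines. A and B do not pair the lines: A minus B deviations correlated between lines at -0.24 to 0.18 over 21 pairs, 1 of them over 0.1. Alternatives were normexp background correction with an offset of 50, other scalings and filters, replicate and slide blocks, the median of a gene's probes, and leaving out lines or arrays. Leaving out single arrays of RMAPC-1 was added after the data were seen.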

Additional observations from a re-analysis of the deposited data

How the results depend on the processing

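The differences of stem cell lines minus RClone-2 passed in all 18 other settings for Fgfr3 and in all 17 that kept the probe for Fgfr4, at 4.02 to 6.35 and 3.16 to 6.49, with limma adjusted p up to 1.90e-04 and 8.59e-04, the lowest values under normexp. The Fgfr2 3' probe was lower in blastocyst than in bone marrow lines in the 17 other settings that kept it, with differences of -6.86 to -4.28. The filter on probes above background on all arrays dropped the Fgfr4 and the Fgfr2 3' probe. Leaving out lines or arrays gave -1.30 to -0.89 for the Fgfr1 kinase probe and 2.17 to 3.43 for the Fgfr2 3' probe in stem cell lines minus RClone-2, which passed only without Fi2 and only without Wk8. Unscaled values gave 1.09 for Fgfr3, -0.0939 for Fgfr4 and 0.149 for the Fgfr2 variant a probe in blastocyst minus bone marrow lines, and 0.0913 for the last in stem cell lines minus RClone-2. With slide as a block Fgfr4 came to -1.14 in blastocyst minus bone marrow lines. Of all probes, 13993 passed in stem cell lines against RClone-2 and 9491 in blastocyst against bone marrow lines. Under normexp these were 7019 and 1607, and with slide as a block 3595 for blastocyst against bone marrow lines. Leaving out lines or arrays gave 10581 to 14837 and 3021 to 9811: in blastocyst against bone marrow lines 4265 without Fi1, 7126 without Wk8, 3612 without 3C3, 3579 without RMAPC-1, 3021 without arrays A, 6172 without arrays B and 5602 without array A of RMAPC-1. Of the calls in that comparison 28.2% were higher in blastocyst lines, 84.7% unscaled, 40.9% after quantile normalisation, 40.9% under normexp and 44.8% when the percentile was taken over detected probes, while the median over all probes was -0.20 as reported and 0.28 unscaled. The share of higher calls in stem cell lines against RClone-2 was 52.9%, and 63.6% unscaled. With A or B as a replicate block 15661 and 11957 probes passed, and the Fgfr1 partial-cds probe, at -0.60, no longer passed (limma adjusted p = 0.0578). No other receptor call changed with this block. The median of a gene's probes in place of the brightest moved the count of higher or lower calls in each of the 7 pathway lists by at most 1. Except for the omissions and the fewer probes or lines they bring, the cause of these shifts was not tested. Dim signals limit the values of the Fgfr2 kinase, variant a and variant b probes and of the Fgfr1 partial-cds probe. With normexp, blastocyst minus bone marrow lines was -0.09 for the variant a probe and -0.27 for the Fgfr1 partial-cds probe.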
